A study of Rattus norvegicus with 6 samples.

Results

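The genes described here are the 4 genes of calcium/calmodulin-dependent protein kinase II (CaMKII), Camk2a, Camk2b, Camk2d and Camk2g, and the genes of myeloid leukemia factor 1 and its paralog, Mlf1 and Mlf2. They were found by gene symbol and make up 6 of the 15388 genes listed in every sample. The files list them as ENSRNOT00000041533 (Camk2a), ENSRNOT00000081607 (Camk2b), ENSRNOT00000016026 (Camk2d), ENSRNOT00000066163 (Camk2g), ENSRNOT00000017151 (Mlf1) and ENSRNOT00000022467 (Mlf2). The group was selected on the read counts of the same samples, in which Camk2a, Camk2b and Mlf1 were high in late pregnancy, and the other members are relatives within the same families. The difference between the groups is therefore a description for these genes and carries no p-value. RNA of the thyroid was sequenced from adult Sprague-Dawley rats, with 3 samples from non-pregnant rats (NP) and 3 from rats in late pregnancy (LP, day 18, the day of the vaginal plug being day 1). Tissues were snap-frozen, and the labels name no treatment or genetic change in either group. In such bulk samples more RNA of a gene per cell and more cells that use the gene cannot be told apart.

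CaMKII is a kinase that calcium-loaded calmodulin switches on, and its subunits assemble into a large ring in which neighbours phosphorylate each other and keep the kinase active after the calcium signal has gone. The alpha and beta subunits are best known from neurons, and the delta and gamma subunits are found in most tissues. In skeletal muscle, Camk2a also encodes alphaKAP, a short product without the kinase domain that anchors CaMKII to the sarcoplasmic reticulum, and Camk2b gives a muscle form of the beta subunit. MLF1 was found through a fusion with nucleophosmin in myeloid leukemia and is abundant in skeletal muscle, heart and testis, whereas MLF2 is made in most tissues. The study reports counts per gene model, and each of these genes stands under a single transcript identifier. Whether the counts cover alphaKAP, the full kinase or both, and which splice forms of Camk2b, cannot be told from these data.

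Between 2752144 and 2965936 reads were counted on genes in the NP samples and between 3224104 and 3449857 in the LP samples. The members held between 813 and 872 of them in NP and between 1464 and 1500 in LP. Expression is given below as CPM, the read count of a gene scaled to library size with TMM factors, and 3 reads, taken as the smallest level that can be seen, stood for 0.893 to 1.08 CPM. Replicates 2 and 3 of a group differed by no more than the noise of counting reads (chi-square per degree of freedom 1.02 in NP and 0.995 in LP), whereas replicate 1 differed from them (3.70 to 4.11). Each such pair entered a mean ± SD as 1 sample (n = 2 for each group). The labels give 3 rats per group and number the libraries as repeats without naming the animal of each, so p-values may measure technical spread. Markers of follicular cells, among them Tg and Pax8, were present in all samples and took between 232300 and 259100 CPM together. The 14 counted markers of skeletal muscle summed to between 30.8 and 78.8 CPM in NP and between 4518 and 4775 CPM in LP.

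To show what lies in front of the raised genes, the 250 bases before the start that RefSeq gives (rat build GRCr8, whereas the reads had been mapped to rn5) are printed for Camk2a, Camk2b and Mlf1. Capitals mark the letters GTTGCCAT, part of the site bound by RFX factors, and, in Mlf1, also the letters TGACGTCA (the cAMP response element) and CCAAT. The Camk2a sequence is the plus strand of chr18:56648930-56649179, the Camk2b sequence the minus strand of chr14:85147945-85148194, and the Mlf1 sequence the plus strand of chr2:153958341-153958590.
Camk2a: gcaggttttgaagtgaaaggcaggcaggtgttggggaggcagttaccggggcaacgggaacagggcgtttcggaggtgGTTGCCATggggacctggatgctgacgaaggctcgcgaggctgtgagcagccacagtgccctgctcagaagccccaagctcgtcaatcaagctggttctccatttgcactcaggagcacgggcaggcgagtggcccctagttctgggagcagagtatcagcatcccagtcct
Camk2b: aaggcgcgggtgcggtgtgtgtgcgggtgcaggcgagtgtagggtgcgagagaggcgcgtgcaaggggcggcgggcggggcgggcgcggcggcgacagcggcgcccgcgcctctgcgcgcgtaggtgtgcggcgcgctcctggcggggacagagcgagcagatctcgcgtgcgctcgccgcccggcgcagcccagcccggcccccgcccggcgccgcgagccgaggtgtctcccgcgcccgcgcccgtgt
Mlf1: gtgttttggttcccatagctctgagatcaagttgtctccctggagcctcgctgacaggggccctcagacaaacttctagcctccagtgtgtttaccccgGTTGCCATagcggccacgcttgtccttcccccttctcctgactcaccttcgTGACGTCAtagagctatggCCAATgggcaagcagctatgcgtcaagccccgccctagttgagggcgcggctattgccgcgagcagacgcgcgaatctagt
The letters GTTGCCAT stood once in the Camk2a window and once in the Mlf1 window and in none of the other 4, and 1.03% of 33469 rat windows of this length held them on either strand. The letters TGACGTCA stood in the Mlf1 window alone among the 6, against 1.59% of all windows. Both were looked for because they had been noticed in the Mlf1 sequence, so their presence there is no result, and the other letters were also chosen after the sequences had been seen. No member window held CAGCTG (a form of the E-box, a site of myogenic factors, 12% of all windows), CATTCC (the M-CAT element of muscle genes, 12.1%), TATAAA (12.9%) or a match to the MEF2 site (1.68%). Other forms of the E-box, such as CAGGTG, which stands in the Camk2a window, were not counted. The letters GGGAGGG, bound by MAZ, stood 3 times in the Camk2g window, with 2 of these matches overlapping, and in no other member window, against 18.7% of all windows. CCAAT stood in the Mlf1 window only (34% of all windows). The windows of Camk2b and Camk2g were rich in G and C (80.4% and 80.8%), those of Camk2a and Mlf1 less so (60.4% and 58%), with a median of 51.2% over all windows. A match of letters is not a site in use, and where transcripts began in these samples was not measured.

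Camk2a, which encodes the alpha subunit or alphaKAP, was nearly absent from NP thyroid and low but present in LP. It had 1, 0 and 3 reads in NP replicates 1, 2 and 3 and 29, 26 and 28 reads in LP replicates 1, 2 and 3, and every LP sample lay above every NP sample. Its level was 0.426 ± 0.096 CPM (SD, n = 2) in NP, below what 3 reads can show, and 8.67 ± 0.89 CPM in LP. The summed reads, 4 in NP and 83 in LP, gave an 18.7-fold ratio of levels, with a 95% counting interval from 7.04 to 70.2. The log2 fold change of the model was 4.11 (standard error 0.48), and it moved to 3.54 without NP replicate 2 and to 5.32 without NP replicate 3, the library that held 3 of the 4 reads.

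Camk2b was present in NP thyroid and was the best measured of the raised genes. Its counts were 37, 29 and 29 in the NP libraries against 247, 253 and 247 in the LP libraries, with no overlap between the groups. The level was 11.4 ± 2.6 CPM in NP and 76.8 ± 3.4 CPM in LP, which is 7.06-fold or 2.82 on the log2 scale (standard error 0.12). Computed within replicate 1 and within replicates 2 and 3, the log2 change was 2.53 and 2.90. With about the same value under every alternative tried (2.73 to 2.99), the size of the Camk2b change depended less on single libraries than that of Camk2a.

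Of the widely expressed isoforms, Camk2d stayed within the spread of the samples. Its counts of 99, 96 and 85 (NP) and 119, 102 and 115 (LP) gave levels that did not separate, and after scaling the groups overlapped, with 32.6 ± 4.0 CPM in NP and 35.2 ± 4.1 CPM in LP. The log2 fold change was 0.11 (standard error 0.12, 95% interval -0.14 to 0.37), so that a 2-fold change lay outside the interval. Camk2g lay between Camk2d and the raised isoforms. Its counts were 106, 124 and 159 in NP and 217, 236 and 236 in LP, and the LP samples, at 69.6 to 70.3 CPM, all lay above the NP samples, at 38 to 52.4 CPM. The log2 fold change of Camk2g was 0.67 (standard error 0.098), or 1.60-fold, below the cutoff of 2.

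**Figure D1:**
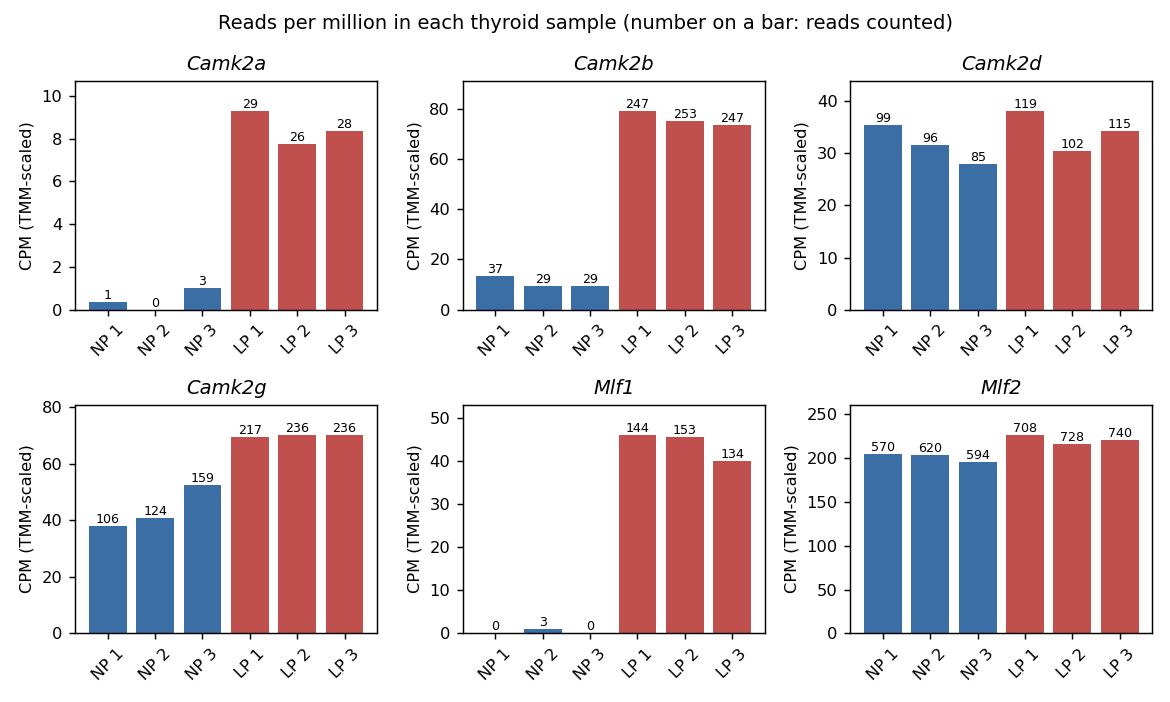
Expression of the 6 genes in each sample, in CPM after TMM scaling, with a linear axis from 0 in each panel. Blue bars are NP and red bars LP samples, and the number on a bar is the reads counted. Camk2a, Camk2b and Mlf1 stand at 0 to 13.3 CPM in NP and at 7.74 to 79.2 CPM in LP, whereas the bars of Camk2d overlap between the groups.

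Mlf1 had the largest difference of the 6 genes. The NP libraries held 0, 3 and 0 of its reads and the LP libraries 144, 153 and 134, or 0.247 ± 0.35 CPM (SD, n = 2) against 44.4 ± 2.4 CPM, and the groups did not overlap. The 3 NP reads, all in replicate 2, against 431 LP reads gave a 129.5-fold ratio with a 95% counting interval from 44 to 630.3. The model gave a log2 fold change of 6.86 (standard error 0.34), a value that depends on how the empty libraries are treated. Without NP replicate 2 no NP read was left, and taking 3 reads over the NP group as the limit then gave 85.1-fold. That value leaves out the library that held the NP reads, and the counting interval over all libraries reaches lower, to 44-fold.

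Mlf2, the paralog made in most tissues, was well measured in both groups and differed little. The counts of 570, 620 and 594 (NP) and 708, 728 and 740 (LP) stood for 202.1 ± 3.3 CPM and 222.7 ± 6.0 CPM. The LP values lay just above the NP values, with a log2 fold change of 0.14 (standard error 0.056, 95% interval 0.019 to 0.25). This interval counts all 6 libraries as separate samples and is too narrow if replicates 2 and 3 are repeats. The standard error was 0.071 with replicates 2 and 3 summed and 0.073 with DESeq2. The Mlf2 change was far below the cutoff of 2-fold and was 0.065 on the log2 scale when libraries were scaled by their totals alone.

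The study called a gene differentially expressed when it changed more than 2-fold at an adjusted p-value under 0.05. With these criteria and the quasi-likelihood test of edgeR, 3 of the 6 members were up-regulated in LP (Camk2a, Camk2b and Mlf1) and 0 were down-regulated. Over all 11738 genes tested, 4.9% were up-regulated and 0.537% down-regulated by them. All 6 members passed the filter on low counts, Camk2a and Mlf1 only through their LP reads. The members were chosen on this contrast, so nothing is read from their share. Among the members, Camk2b, at 2.82, was the closest above the cutoff of 1 on the log2 scale and Camk2g, at 0.67, the closest below it.

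The raised isoforms were next set against their relatives inside each library, since such a ratio does not depend on how libraries are scaled. The log2 ratio of Camk2b to Camk2d reads, with 0.5 added to each count, was -1.41, -1.71 and -1.54 in NP replicates 1 to 3 and 1.05, 1.31 and 1.10 in LP. The balance between these genes thus turned from more Camk2d reads to more Camk2b reads, with a change of 2.64 on the log2 scale (replicate spread 0.19). The log2 ratio of Camk2a to Camk2d was -6.05, -7.59 and -4.61 in NP and between -2.02 and -1.95 in LP. Its NP values rest on 0 to 3 Camk2a reads and lay far apart, so the change of 4.07 is uncertain in size. The log2 ratio of Camk2g to Camk2d was 0.098, 0.37 and 0.90 in NP and 0.86, 1.21 and 1.03 in LP. These values overlapped, with NP replicate 3 above LP replicate 1, so the change of 0.63 (replicate spread 0.42) did not separate the widely expressed isoforms in every library. The log2 ratio of Mlf1 to Mlf2 was -10.16, -7.47 and -10.22 in NP and -2.29, -2.25 and -2.46 in LP, a change of 7.18 (replicate spread 0.93) that again rests on few NP reads.

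**Figure D2:**
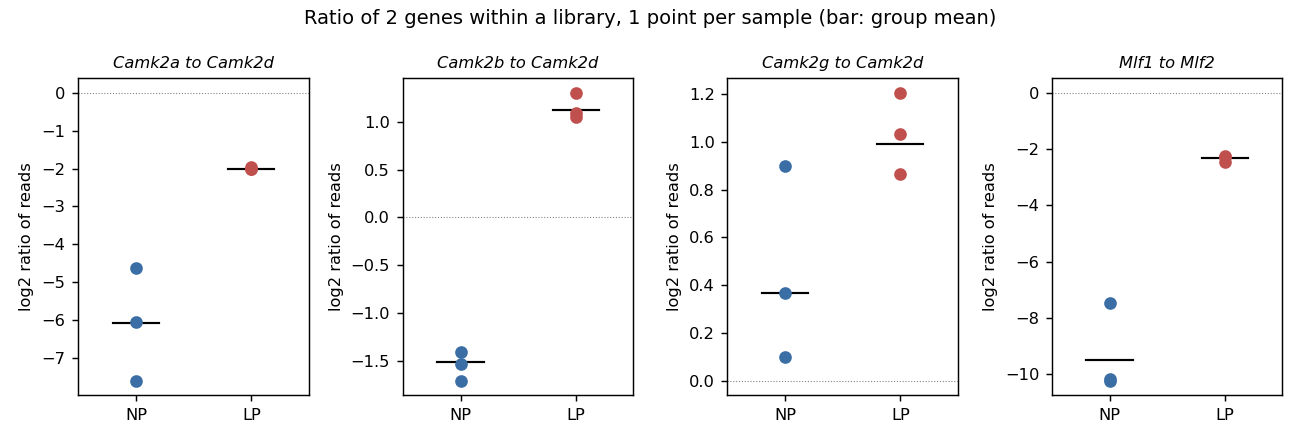
Log2 ratio of the reads of a gene to those of its relative in the same library, with 0.5 added to each count and 1 point per sample (blue NP, red LP, black bar the group mean). The axes differ between panels. Camk2b to Camk2d runs from -1.71 to -1.41 in NP and from 1.05 to 1.31 in LP, and only in the panel of Camk2g to Camk2d do the groups overlap.

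The make-up of CaMKII reads changed with these ratios. Over the 4 genes together the level was 86.8 ± 0.52 CPM in NP and 190.6 ± 7.9 CPM in LP, or 2.20 times as high. Camk2b took 13.2 ± 2.9% of the CaMKII reads in NP and 40.3 ± 0.091% in LP, and Camk2a 0.478 ± 0.093% and 4.54 ± 0.28%. Because replicates 2 and 3 were averaged first, these SD can be smaller than the spread of single libraries. In NP replicates 1 to 3 the Camk2a share was 0.41%, 0% and 1.09%, and the level of the 4 genes together was 87.14, 81.85 and 90.95 CPM. The share of Camk2d was 37.7 ± 4.3% in NP and 18.4 ± 1.4% in LP, and that of Camk2g 48.7 ± 7.1% and 36.7 ± 1.8%, although neither gene had a lower level in LP. A share of reads depends on transcript length, which was not used here, so only the change of a share between the groups can be read and the isoforms were not ranked against each other.

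**Figure D3:**
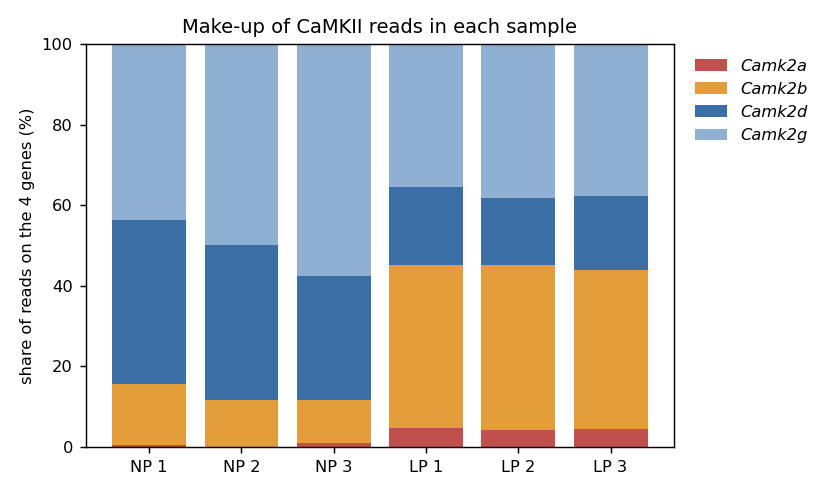
Share of the reads of the 4 CaMKII genes that fell on each gene, in percent, in each sample. Camk2b takes between 10.5% and 15.2% in the NP samples and between 39.5% and 41% in the LP samples, and Camk2d between 30.8% and 40.7% and between 16.5% and 19.4%.

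Other genes of the same pathways were taken from lists by role, drawn up with earlier results of these data known, with 63 of 69 listed genes counted and 52 tested. Of these, 19 had a higher and 5 a lower level in LP at an adjusted p-value under 0.05 (edgeR), against 15.3% and 11.7% of all genes tested. Up-regulation above 2-fold was found for 10 of the 52 (19.2%) and down-regulation for 0, against 4.9% and 0.537% of all genes tested. Of these 10, Mylk2, Phkg1, Ryr1, Sln and Actn2 had 0 to 7 reads in each NP library and passed the filter on low counts only through their LP reads. The shares here and by list below are therefore a description and no test. The median log2 fold change of the 52 was 0.11, and that of all genes tested was -0.0089. With the replicate number as a block, 21 were higher and 11 lower, and 10 were above 2-fold. The count of lower genes moved most, to 2 without LP replicate 3 or with replicates 2 and 3 summed, and to 12 with library totals alone.

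Of the calmodulins, which switch on CaMKII, none was higher in LP by the test. Calm2 was lower in LP, at -0.16 on the log2 scale (adjusted p = 0.0282 in edgeR), which was 0.0615 with DESeq2 and 0.0958 with replicates 2 and 3 summed. Calm3 had a log2 fold change of 0.057 (adjusted p = 0.552 in edgeR), and the sign turned to -0.015 with library totals alone.

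Among the other kinases that calmodulin regulates, 3 of 9 tested genes were higher (33.3%, against 15.3% of all genes tested) and 0 lower. Mylk2, the myosin light chain kinase of skeletal muscle, was counted 5, 5 and 3 times in NP against 145, 175 and 186 times in LP, a difference of 5.09 on the log2 scale (standard error 0.21, adjusted p = 2.89e-12 in edgeR). Phkg1, the catalytic subunit of phosphorylase kinase in muscle, was counted 3, 5 and 4 times in NP against 129, 109 and 109 times in LP, a log2 fold change of 4.66 (adjusted p = 1.16e-10 in edgeR). Their relatives of other tissues did not pass the test, but did so in other fits. Phkg2, the liver and testis form, had a log2 fold change of -0.18 (adjusted p = 0.061 in edgeR, 0.0106 with the replicate block, 0.0083 with library totals alone), and Mylk, the smooth muscle form, one of -0.16 (adjusted p = 0.807 in edgeR, 0.0348 with the block). Mylk had 124 reads in NP replicate 1 and 156 in LP replicate 1, against 547 to 587 in the other 4 libraries, so the replicates of a group stood further apart than the groups. The third higher gene, Dapk2, a death-associated kinase, had a log2 fold change of 0.71 (adjusted p = 0.0437 in edgeR), which was 0.0763 with replicates 2 and 3 summed, 0.063 with library totals alone and 0.218 with DESeq2. It was named after its value was seen. Dapk1 had a log2 fold change of 0.019 (adjusted p = 0.896 in edgeR). The genes of the CaMK cascade itself, Camk1, Camkk1 and Camkk2, named after their values were seen, had log2 fold changes of -0.20, -0.16 and 0.26 and did not pass the test, although Camk1 and Camkk2 did with the replicate block (adjusted p = 0.0325 and 0.0336 in edgeR) and Camk1 and Camkk1 with library totals alone (0.0202 and 0.0482).

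Of the inhibitors and phosphatases of CaMKII signalling, 1 of 7 tested genes was higher (14.3%), close to the 15.3% of all genes tested. Ppp1r1a, an inhibitor of protein phosphatase 1, was counted 12, 19 and 15 times in NP against 106, 104 and 113 times in LP, a difference of 2.65 on the log2 scale (standard error 0.17, adjusted p = 1.83e-09 in edgeR). The catalytic subunits of protein phosphatase 1, Ppp1ca, Ppp1cb and Ppp1cc, had log2 fold changes of -0.12, 0.083 and -0.074 and did not pass the test, although Ppp1ca did with the replicate block and with library totals alone (adjusted p = 0.037 and 0.0249 in edgeR). Camk2n1, an endogenous inhibitor of CaMKII named after its value was seen, was counted 106, 117 and 127 times in NP against 147, 150 and 156 times in LP, a log2 fold change of 0.22 (adjusted p = 0.0925 in edgeR). In the calcineurin group, the phosphatase that the same calcium signal activates, 3 of 8 tested genes were higher (37.5%, against 15.3%) and 0 lower. Rcan2, a regulator of calcineurin, was counted 17, 22 and 30 times in NP against 84, 84 and 89 times in LP, a difference of 1.74 on the log2 scale (standard error 0.18, adjusted p = 6.25e-07 in edgeR). The catalytic subunits Ppp3ca and Ppp3cb were higher by 0.47 and 0.43 on the log2 scale (adjusted p = 0.00094 and 0.00248 in edgeR), and Cabin1, a calcineurin inhibitor, had a log2 fold change of -0.15 (adjusted p = 0.148 in edgeR, 0.0276 with library totals alone).

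The substrates and effectors of CaMKII held most of the higher genes, with 11 of 16 tested (68.8%, against 15.3% of all genes tested). Above 2-fold were 6 of the 16 (37.5%, against 4.9%), and the median log2 fold change of the list was 0.58. The list was drawn up with earlier results of these data known, and Ryr1, Sln and Actn2 passed the filter only through their LP reads. Nothing about CaMKII targets is therefore read from these shares. The changes differed in size between relatives. Ryr1, the calcium release channel of skeletal muscle, was counted 6, 7 and 3 times in NP against 1439, 1485 and 1524 times in LP, a difference of 7.94 on the log2 scale (standard error 0.12, adjusted p = 5.1e-18 in edgeR). Ryr2, the heart form, was below the filter with 0 to 10 reads in each sample. Atp2a1, the calcium pump of fast muscle fibres, rose by 8.22 on the log2 scale (adjusted p = 6.88e-20 in edgeR), with 3.77 ± 0.26 CPM in NP and 1173 ± 75 CPM in LP. Atp2a2, the pump of slow fibres, heart and most other cells, rose from 61.8 ± 12 to 131.8 ± 14 CPM, a 2.08-fold change (adjusted p = 1.89e-07 in edgeR) that fell below the cutoff with library totals alone and without NP replicate 1. Sarcolipin, Sln, which inhibits these pumps, was counted 0, 1 and 0 times in NP against 111, 104 and 125 times in LP. Actn2, an actinin of the Z-disc, had a log2 fold change of 8.60 (adjusted p = 8.14e-18 in edgeR). Ryr1, Atp2a1, Sln and Actn2 are genes of skeletal muscle, whose summed markers are given below, and the part of muscle RNA in this list was not tested. Mef2c, a transcription factor of muscle and other tissues, was counted 67, 69 and 69 times in NP against 359, 344 and 359 times in LP, a 4.66-fold rise (adjusted p = 1.21e-12 in edgeR). The inositol trisphosphate receptors Itpr1 and Itpr3, the release channels of most cells, had log2 fold changes of -0.13 and 0.14 and did not pass the test, although both did with the replicate block (adjusted p = 0.0173 and 0.00569 in edgeR) and Itpr1 also did with library totals alone (0.0102). Hdac5, a deacetylase that CaMK phosphorylation sends out of the nucleus, was higher by 0.27 on the log2 scale (adjusted p = 0.00639 in edgeR, 0.0608 with DESeq2).

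Of the partners described for MLF1, 1 of 9 tested genes was higher and 4 were lower, all by less than 2-fold. These are 11.1% and 44.4%, against 15.3% and 11.7% of all genes tested. The lower genes were Ywhab, Ywhaz and Ywhae, of the 14-3-3 adaptor family, with log2 fold changes of -0.42, -0.17 and -0.16 (adjusted p = 2.07e-05, 0.016 and 0.0241 in edgeR), and Npm1, nucleophosmin, with -0.45 (adjusted p = 0.00158 in edgeR). The calls of Ywhaz and Ywhae were lost with replicates 2 and 3 summed, at adjusted p = 0.129 and 0.071. The higher gene was Cops3, a subunit of the COP9 signalosome, higher by 0.33 on the log2 scale (adjusted p = 0.0194 in edgeR), which was 0.172 with DESeq2 and 0.0576 with library totals alone. Npm1 and Cops3 were named after their values were seen. Genes of calmodulin, 14-3-3 proteins and nucleophosmin have near-identical processed copies in mammalian genomes, and their counts are uncertain to that extent.

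**Figure D4:**
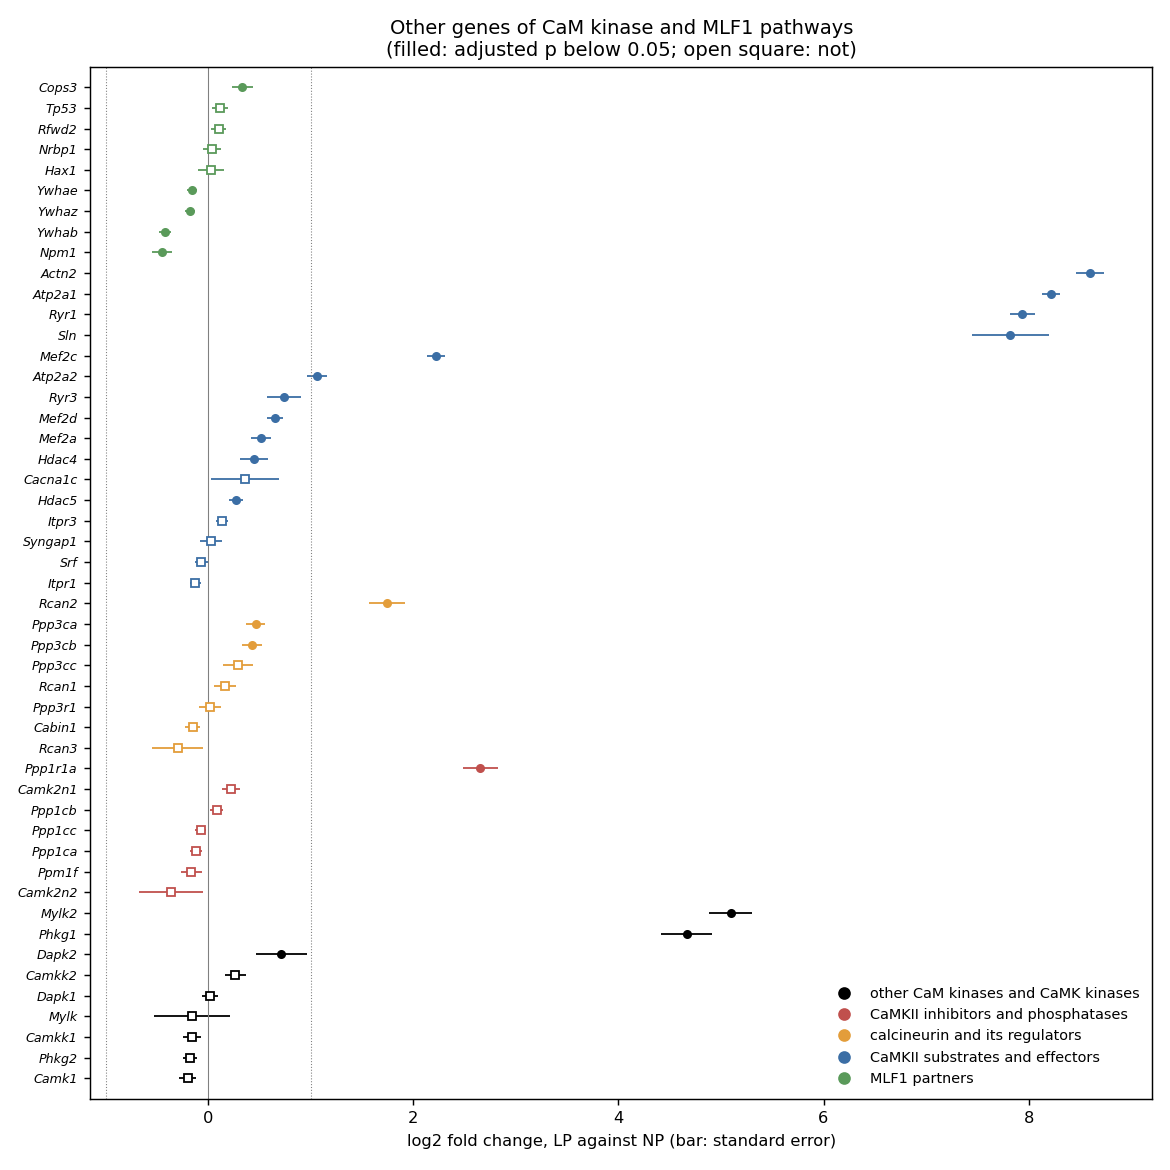
Log2 fold change in LP against NP of the tested pathway genes other than the calmodulins, by list, with the standard error as a bar. Filled circles had an adjusted p-value below 0.05, open squares did not, and dotted lines mark a 2-fold change. The points of Actn2, Atp2a1, Ryr1 and Sln lie at 7.82 to 8.60, and most others lie within 1 of the zero line.

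The genes whose profile over the 6 samples was nearest to that of a raised member were found by the Euclidean distance of log2(CPM + 1) values after subtraction of the NP mean. For Mlf1 these were Sln (distance 0.621), Jsrp1, a protein of the junction between sarcoplasmic reticulum and T-tubules (0.638), and AABR07052585.2 (0.705). For Camk2b they were Eef1a2, the translation elongation factor of muscle and neurons (0.308), Rabep2 (0.37) and Mn1 (0.411). Eef1a2 was counted 255, 229 and 230 times in NP against 2049, 1881 and 1918 times in LP, and thus, like Camk2b, was present in both groups. For Camk2a they were Pgam2, the phosphoglycerate mutase of muscle (0.458), Sh3bgr (0.586) and Rbm38 (0.642). These distances describe 6 libraries in 2 groups, 4 of which are within noise of a partner, and a distance counts the size of the difference as well as its shape.

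Markers of other cell types were then set beside the members. Of the 20 listed skeletal muscle markers 14 were counted and 12 tested. Above 2-fold, 11 of the 12 were up-regulated (91.7%, against 4.9% of all genes tested), and the median log2 fold change of the 12 was 7.65. Among them, Myh1, Myl1, Tnnt3, Tnni2, Pvalb, Cacna1s, Tcap and Xirp2 had 0 to 8 reads in each NP library. These genes passed the filter on low counts only through their LP reads, so the share and the median are a description and no test. Ckm, Mb, Ttn, Myh2, Myh4 and Myh7 were not analysed here. Neb, which encodes nebulin, was counted 27, 21 and 30 times in NP against 3990, 4114 and 3963 times in LP, and Myh1, a fast myosin heavy chain, had 119, 105 and 109 reads in LP. Myh1 and Mylpf, a fast myosin light chain, were at 0 in all NP samples. The tested marker that was not higher was Acta1, skeletal actin, with 0 reads in replicate 1 of both groups and 144 to 186 reads in replicates 2 and 3 of both. The members had like counts in the 3 LP libraries, and so had the 11 up-regulated markers. Casq1, skeletal calsequestrin, was counted 0, 4 and 2 times in NP against 0, 2 and 1 times in LP and was below the filter. The summed muscle markers were 85-fold higher in LP by the group means, and 158.3-fold without Acta1, a sum added after seeing the data. Beside them stand the fitted differences of Mlf1 (115.9-fold), Camk2a (17.3-fold), Camk2b (7.06-fold), Camk2g (1.60-fold), Mlf2 (1.10-fold) and Camk2d (1.08-fold). The part of skeletal muscle RNA in the levels of Camk2a, Camk2b, Camk2g and Mlf1 was not tested.

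Among the markers of neurons and ciliated cells, none tested was higher in LP. The 10 neuron markers, of interest for Camk2a and Camk2b, summed to between 147 and 171 CPM in NP and between 137 and 156 CPM in LP. Most of this sum was Uchl1, at 106.1 of 163.3 CPM in NP and 103.1 of 150.6 CPM in LP by the group means. Of the 5 neuron markers tested, Nefm and Stmn2 were lower (40%, against 11.7% of all genes tested). Their log2 fold changes were -1.59 and -2.10 (adjusted p = 0.00101 and 0.00112 in edgeR). Nefl was at 0 in all NP samples, with 1, 2 and 2 reads in LP. The 10 counted ciliated cell markers, included because MLF1 is also found in ciliated cells, summed to between 31 and 32.3 CPM in NP and between 25 and 29.8 CPM in LP, and 0 of the 3 tested passed the test. Of the 10 follicular cell markers, 0 were past 2-fold, 2 were higher and 3 lower (20% and 30%, against 15.3% and 11.7% of all genes tested). The lower genes were Slc5a5, Tshr and Dio1, with log2 fold changes of -0.94, -0.68 and -0.43, and the higher ones Nkx2-1 and Duox2, with 0.28 and 0.29. The summed level of the 10 differed by 1.04-fold. This sum was mostly Tg, which held 233100 of 241800 CPM in NP and 243000 of 251100 CPM in LP by the group means, so it says little about the other markers.

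**Figure D5:**
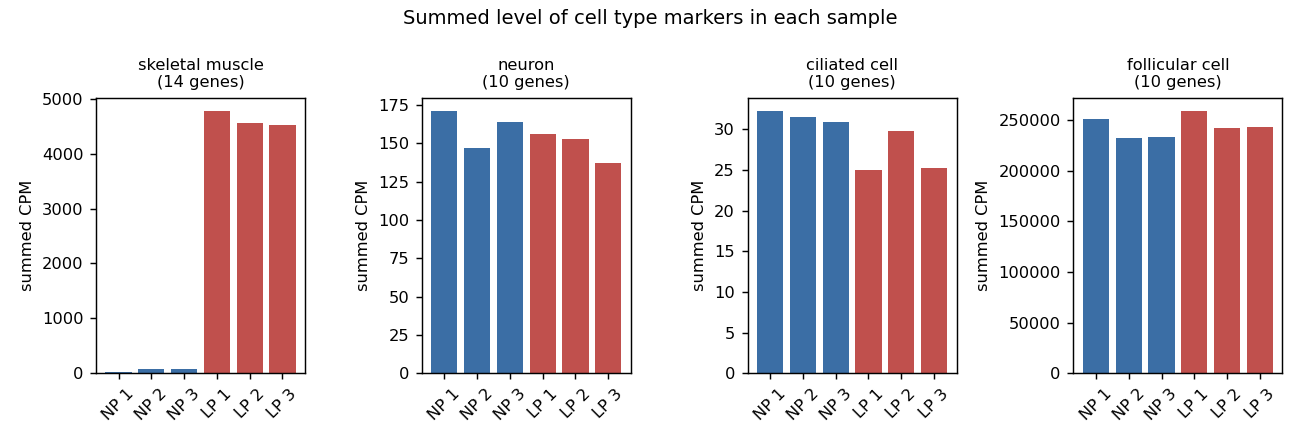
Summed CPM of the counted markers of skeletal muscle, neurons, ciliated cells and follicular cells in each sample, on linear axes from 0 that differ between panels. The muscle sum lies between 30.8 and 78.8 CPM in NP (blue) and between 4518 and 4775 CPM in LP (red), the neuron and follicular sums overlap between the groups, and the ciliated sums lie between 31 and 32.3 CPM in NP and between 25 and 29.8 CPM in LP.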

How the data were processed

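Thyroid RNA of 3 NP and 3 LP rats was sequenced on an Illumina HiSeq instrument. The authors mapped reads to rn5 with TopHat 1.4.0, counted them per Ensembl gene model with HTSeq, and deposited raw counts for each sample. How reads that match several CaMKII genes were treated is not given in the sources used here, and neither is strand.

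LP was compared with NP on all 6 samples with edgeR 4.0.16 (R 4.3.3), using its quasi-likelihood test, TMM scaling, default filter and Benjamini-Hochberg adjustment over 11738 genes. Standard errors are the absolute log2 fold change over the square root of F. CPM were computed from the counts with the same scaling. DESeq2 1.42.0 was an alternative. The members, lists and tests were chosen with earlier results of these data known. Named genes were the members, list genes past the criteria, the calmodulins, up to 3 others per list with the highest counts, and the 3 nearest profiles per raised member.

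Same-numbered replicates deviated together (correlations 0.48, 0.22 and 0.18), which by the rule used here pairs them, although replicates 2 and 3 also did so across numbers (0.21 in both cases). The fit with the replicate block was an alternative. A few genes of the lists are counted but not reported here one by one. The steps were tested on simulated counts. Counting intervals are exact binomial (95%) and cover counting error only. The promoter sequences are from RefSeq (GRCr8), with all 6 members matched by symbol.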

Additional observations from a re-analysis of the deposited data

How the results depend on the processing

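The alternatives were the replicate block, each replicate left out, no or a stricter filter on low counts, other scalings, DESeq2, and replicates 2 and 3 summed. Under all of these that could be fitted the 6 members kept their direction and their side of the criteria. Camk2a could not be tested under the stricter filter (a mean of 50 reads). With the replicate block the log2 fold changes were 4.11 for Camk2a, 2.82 for Camk2b, 0.11 for Camk2d, 0.67 for Camk2g, 6.86 for Mlf1 and 0.14 for Mlf2. The fitted value of Mlf1 ranged from 6.30 without NP replicate 3 to 10.1 without NP replicate 2, where the NP group was empty and the value is no bound. The change of the log2 ratio of Camk2a to Camk2d was 3.60 with 1 added to each count, 3.87 with replicates 2 and 3 summed, and ranged from 3.33 to 4.82 as single replicates were left out. Over all genes, 575 up-regulated and 63 down-regulated genes became 286 and 29 under the stricter filter, which tested 7943 genes. The 10 pathway genes above 2-fold became 9 with library totals alone and without NP replicate 1, in both cases by the loss of Atp2a2. With the replicate block, 576 genes were up-regulated and 65 down-regulated. Depth limits Camk2a and Mlf1 most, with 4 and 3 reads in the NP libraries together.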
